A study of Mus musculus with 6 samples.

Results

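Mitochondrial fusion, fission and axonal transport were followed in 10 genes, taken by symbol from a table of 24060 genes measured in purified mouse retinal ganglion cells (RGCs), the neurons whose axons form the optic nerve. The genes were the fusion genes Opa1, Mfn1 and Mfn2, the fission gene Dnm1l, the transport genes Rhot1, Rhot2, Trak1, Trak2 and Armcx1, and Snph, which anchors mitochondria. The genes were taken for their known roles, with no threshold on a measured value. Their list was drawn up with earlier results of these data known. All 10 had enough reads to be tested. RNA was sequenced from 3 samples of RGCs at embryonic day 18 (E18, replicates 1, 3 and 4) and 3 at postnatal day 5 (P5, replicates 6, 8 and 9). All were C57BL/6 cells, from wildtype mice per the study's methods and with no treatment named, purified by immunopanning, in which macrophages are first removed and RGCs are then held on a dish coated with anti-CD90, an antibody against the surface protein Thy1. A figure legend of the study adds that cells were sorted for Thy1, and does not say whether this covers these samples. The study made the comparison because RGCs at E18 grow axons readily and those at P5 do so far less. The study used mice of both sexes, but neither the sex nor the number of animals behind each sample is given here, and the header of E18 replicate 1 names 3 numbers (1, 2 and 5), so it may pool preparations. Nothing says that the samples came from separate litters, so p-values measure the spread between these samples.

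Mitochondria join and divide throughout the life of a neuron. In fusion, the mitofusins Mfn1 and Mfn2 tether and merge outer membranes, and the GTPase Opa1 merges inner membranes and shapes the cristae. In fission, the dynamin-related GTPase Dnm1l (Drp1) is drawn to the outer membrane and constricts it. For travel along axonal microtubules, the outer-membrane GTPases Rhot1 and Rhot2 (Miro1 and Miro2) bind the adaptors Trak1 and Trak2, which couple to kinesin and dynein, while syntaphilin (Snph) holds mitochondria in place in the axon. Armcx1, an armadillo-repeat protein of the outer membrane, promotes mitochondrial movement and is known for its role in axon regrowth of RGCs. Loss of 1 working copy of OPA1 causes dominant optic atrophy in people, a disease in which RGCs are lost.

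Between 81213639 and 114512853 reads were counted on genes per sample, and the 10 genes had between 2218 reads (Snph) and 45029 reads (Dnm1l) in single samples. Summed over 15 RGC markers, expression was 9441 to 10719 CPM (a gene's reads scaled to the TMM-normalized size of the library) at E18 and 9753 to 10883 CPM at P5. Among these markers, 4 were higher and 4 lower at E18. The E18 samples also held more RNA of dividing cells (14 genes, of which 10 were higher at E18, 129 to 421 CPM against 102 to 121) and of retinal progenitors (12 genes, of which 7 were higher at E18, 48.6 to 327 CPM against 27.2 to 40.9). These sums were highest in E18 replicate 1 and lowest at E18 in replicate 4. Amacrine markers (11 genes) summed to 637 to 951 CPM at E18 and 527 to 652 at P5, and of 8 tested, 4 were higher at E18 and 0 lower. Sums for Müller glia and astrocytes (12 genes) were 529 to 625 CPM and 531 to 554 CPM, with 3 genes higher and 2 lower at E18. Endothelial cells and pericytes (9 genes) summed to 16.5 to 72.8 CPM at E18 and 14.6 to 17.9 at P5, and oligodendrocytes (9 genes) to 93.9 to 94.4 and 56.4 to 75.5. Most of their called genes went against these sums. For endothelial cells and pericytes, 1 was higher and 3 were lower at E18 (8 tested). For oligodendrocytes, 1 was higher and 2 were lower (7 tested). Sums were 50.1 to 74.8 and 70.1 to 97.8 CPM for bipolar cells (9 genes), 4.62 to 16.9 and 4.15 to 5.45 for photoreceptors (12 genes), and 4.85 to 5.29 and 3.58 to 3.72 for microglia and macrophages (11 genes). Higher and lower at E18 were 2 and 2 bipolar genes, 4 and 1 photoreceptor genes, and 1 and 0 genes of microglia and macrophages. The part of other cell types in the values below was not tested, and in bulk RNA fewer cells of a type cannot be told apart from less RNA per cell.

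Of the 10 genes, 5 were lower at E18 than at P5 and 5 did not pass the test. The 5 were Trak2, Armcx1, Dnm1l, Mfn2 and Opa1, which span fusion, fission and transport. In edgeR's quasi-likelihood test, adjusted over the 16449 genes tested, 22.5% of all genes were lower at E18, 20.8% were higher and 43.4% differed in either direction. The share of 5 in 10 that differed was thus near the background. None of the 10 was higher at E18 by edgeR, 0 at an unadjusted p under 0.05 and 0 in DESeq2. The median log2 fold change of the 10 genes (E18 over P5, so that a negative value is lower at E18) was -0.23, against 0.00473 over all genes tested. For 7 of the 10, every E18 sample lay below every P5 sample, as was so for 28.5% of all genes. Together the 10 genes took 0.123% to 0.126% of counts at E18 and 0.156% to 0.170% at P5. Without E18 replicate 1, or without E18 replicate 3, the number of genes passing fell to 3, and Opa1 and Mfn2 were those lost. Over all genes, the number passing also fell in these fits, from 7135 to 5110 and to 4575.

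**Figure D1:**
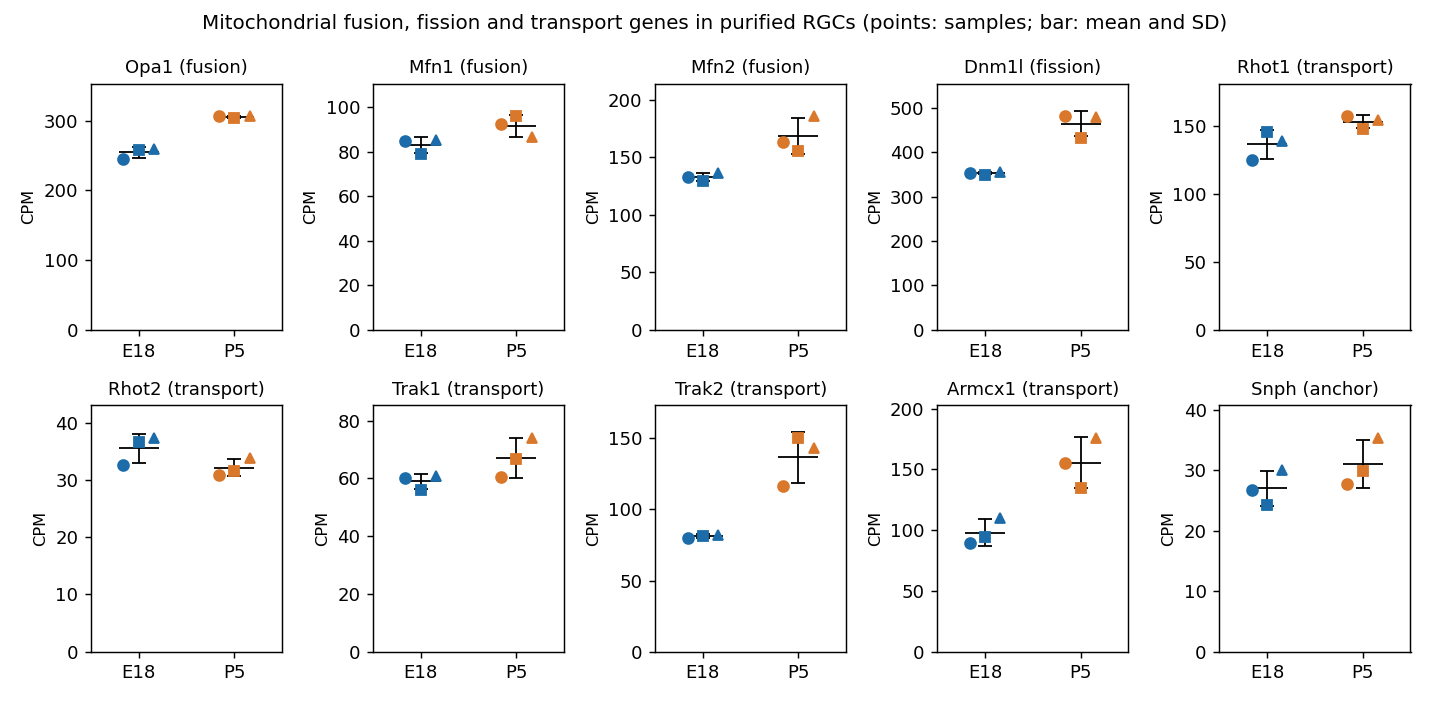
Expression of the 10 genes in CPM (y axes, from 0) in the E18 and P5 samples. Each point is 1 sample (circle, square and triangle for replicates 1, 3 and 4 at E18 and 6, 8 and 9 at P5), and the bars give the mean and SD of 3 samples. Trak2 lies at 79.7 to 82.2 CPM at E18 and 116 to 151 CPM at P5, and the ages overlap for Rhot2, Trak1 and Snph.

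Promoter sequences were set beside these values, since genes that changed together might share sequence at their starts. Each RefSeq window runs from 250 bases before an annotated start to 50 after it, on the GRCm38.p6 assembly (mm10), and all 10 genes had at least 1 window, with 16 windows in all. The motifs searched, on both strands, were CCGGAAGT (bound by ETS factors such as Elk-1 and Gabpa), GCGCATGC (NRF-1), TGACGTCA (CRE, bound by Creb1), GGGCGG (Sp1) and AAGATGG (YY1). The windows of Opa1 and Mfn1 are shown because they hold the NRF-1 and ETS motifs, and those of Trak2 and Armcx1 because these genes changed most. Capitals mark motif matches, and each sequence runs 5′ to 3′ on the strand of its gene.
Opa1, chr16:29579084-29579383, plus strand: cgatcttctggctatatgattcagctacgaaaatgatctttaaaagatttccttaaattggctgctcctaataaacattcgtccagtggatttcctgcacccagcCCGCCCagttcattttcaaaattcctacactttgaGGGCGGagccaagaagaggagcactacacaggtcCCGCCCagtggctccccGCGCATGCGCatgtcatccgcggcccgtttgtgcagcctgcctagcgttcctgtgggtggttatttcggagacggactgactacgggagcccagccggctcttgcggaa
Mfn1, chr3:32529232-32529531, plus strand: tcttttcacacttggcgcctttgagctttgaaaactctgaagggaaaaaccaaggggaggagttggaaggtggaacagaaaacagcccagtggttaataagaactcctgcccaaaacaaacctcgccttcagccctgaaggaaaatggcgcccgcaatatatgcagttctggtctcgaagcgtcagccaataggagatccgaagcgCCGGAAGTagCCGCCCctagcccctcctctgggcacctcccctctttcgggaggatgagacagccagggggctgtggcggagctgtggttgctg
Trak2, chr1:58973433-58973732, minus strand: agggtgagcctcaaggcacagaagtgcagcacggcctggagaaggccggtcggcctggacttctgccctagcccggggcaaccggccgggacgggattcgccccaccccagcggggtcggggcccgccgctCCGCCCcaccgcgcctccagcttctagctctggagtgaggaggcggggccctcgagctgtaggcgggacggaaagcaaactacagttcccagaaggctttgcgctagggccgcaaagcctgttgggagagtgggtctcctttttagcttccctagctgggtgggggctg
Armcx1, chrX:134717688-134717987, plus strand: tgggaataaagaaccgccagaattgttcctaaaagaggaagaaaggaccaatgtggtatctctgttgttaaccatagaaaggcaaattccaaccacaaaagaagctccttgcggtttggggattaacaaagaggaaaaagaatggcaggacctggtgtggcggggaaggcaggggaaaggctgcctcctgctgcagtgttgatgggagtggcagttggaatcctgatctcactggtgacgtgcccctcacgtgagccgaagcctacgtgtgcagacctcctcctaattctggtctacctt

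The ETS motif, the letters of the Elk-1 site, was found in 1 of the 16 windows, that of Mfn1, where it starts 44 bases before the annotated start and is followed by an Sp1 motif that starts 34 bases before it. It occurs in 3.89% of all 32851 windows of the same length. In the Opa1 window, 2 overlapping NRF-1 matches, 1 on each strand, begin 59 and 57 bases before the start (2.71% of all windows hold this motif). The CRE was in 1 window, a later start of Trak1 (1.79% of all windows), and YY1 in none (6.34% of all windows). The Sp1 motif was present in 11 of the 16 windows, against 35.7% of all windows. These windows belonged to 9 of the 10 genes, all but Armcx1, and no share per gene was computed for comparison. Some genes have several windows, and those of Mfn2 overlap, so the 16 are not independent. CpG pairs numbered 7 to 41 per window with a median of 16, against a median of 7.0 over all windows. The Sp1 share, for a motif of G and C alone, was not adjusted for this difference. Armcx1 had the fewest CpG pairs of the 10 genes and none of the 5 motifs. A match is a run of letters, and binding was not measured here.

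Opa1 and Mfn2, of the 3 fusion genes, were lower at E18, and Mfn1 did not pass the test. Opa1 (ENSMUSG00000038084.16, chromosome 16 of mm10, 29579334 to 29654884, plus strand), the inner-membrane fusion GTPase, had 245, 259 and 260 CPM in E18 replicates 1, 3 and 4. The P5 samples were close together, at 306, 304 and 307 CPM in replicates 6, 8 and 9. Every E18 value lay below every P5 value. The mean rose from 254 ± 8.02 CPM to 306 ± 1.65 CPM (SD, 3 samples each), and the log2 fold change was -0.26 (SE 0.0767, edgeR adjusted p = 0.0230), or 1.201-fold higher at P5. Opa1 lost its call without each of the 3 E18 samples in turn (log2 fold change -0.28 to -0.23, adjusted p = 0.107, 0.0822 and 0.0599 in edgeR without replicates 1, 3 and 4).

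Mfn2 (ENSMUSG00000029020.13, chromosome 4, 147873599 to 147904704, minus strand), the mitofusin that is mutated in an inherited axonal neuropathy, had 133, 129.6 and 136 CPM in the E18 samples and 163, 156 and 186 CPM in the P5 samples. The ages did not overlap, and P5 replicate 9 was the highest. Its log2 fold change was -0.34 (SE 0.0929, edgeR adjusted p = 0.0180), 1.27-fold higher at P5. The call was lost without E18 replicate 1 (-0.34, adjusted p = 0.0627 in edgeR) or E18 replicate 3 (-0.32, adjusted p = 0.0803). Its paralog Mfn1 (ENSMUSG00000027668.13, chromosome 3, 32529465 to 32579239, plus strand) had 84.9, 78.9 and 85.1 CPM at E18 and 92.2, 96.2 and 86.5 CPM at P5. These values did not overlap, but E18 replicate 4 and P5 replicate 9 were close. The difference did not pass (log2 fold change -0.14, 95% interval -0.34 to 0.05, edgeR adjusted p = 0.208).

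Dnm1l, the fission GTPase (ENSMUSG00000022789.15, chromosome 16, 16312230 to 16358959, minus strand), had the highest expression of the 10 genes. In the E18 samples it stood at 353, 349.5 and 355 CPM, a mean of 353 ± 2.78 (SD, n = 3). In the P5 samples it stood at 482, 431 and 479 CPM, a mean of 464 ± 28.5 (SD, n = 3). The E18 samples thus varied little and all lay below P5. The log2 fold change was -0.40 (SE 0.0820, edgeR adjusted p = 0.00560), 1.32-fold higher at P5, and it passed in all 13 alternatives run. The span, introns included, of a GENCODE antisense gene, Gm49521, covers 243 of the 4166 exon bases of Dnm1l. Whether reads were counted by strand is not given in the sources used here.

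Among the Miro GTPases, neither gene passed the test and their fold changes had opposite signs. Rhot1 (ENSMUSG00000017686.17, chromosome 11, 80209019 to 80267907, plus strand) had 125, 146 and 139 CPM at E18 and 157, 148 and 154 CPM at P5. The highest E18 sample, replicate 3, lay just under the lowest P5 sample, replicate 8. The log2 fold change was -0.17 (95% interval -0.37 to 0.04, edgeR adjusted p = 0.163). Rhot2 (ENSMUSG00000025733.17, chromosome 17, 25838457 to 25844851, minus strand) had 32.7, 36.7 and 37.5 CPM at E18 and 31.0, 31.7 and 33.9 CPM at P5, so that E18 replicate 1 fell among the P5 samples. It was the only gene of the 10 with a positive log2 fold change, 0.15 (95% interval -0.08 to 0.37, edgeR adjusted p = 0.255). All exon bases of Rhot2 lie within the GENCODE span, introns included, of Gm26694 on the other strand. On the same strand, 2142 of 3189 lie within the span of Gm20683 and 81 within that of Wdr90. Whether Gm26694 and Gm20683 were among the RefSeq genes counted was not looked up here. Any effect of these genes on the Rhot2 counts was not tested.

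Of the adaptors, Trak2 was lower at E18 and Trak1 did not pass the test. Trak2 (ENSMUSG00000026028.12, chromosome 1, 58900449 to 58973430, minus strand) was measured at 79.7, 81.5 and 82.2 CPM at E18, a mean of 81.1 ± 1.30 (SD, n = 3). At P5 it reached 116, 151 and 143 CPM, a mean of 137 ± 17.99 (SD, n = 3). The E18 samples were close together, and P5 replicate 6, the lowest P5 sample, stood well above them. Of the 10 genes Trak2 had the largest change, with a log2 fold change of -0.75 (SE 0.109, edgeR adjusted p = 0.00122), or 1.69-fold higher at P5. Of all genes tested, 14.1% had a lower log2 fold change. Trak1 (ENSMUSG00000032536.11, chromosome 9, 121297502 to 121474918, plus strand) had 60.1, 55.9 and 60.8 CPM at E18 and 60.4, 66.6 and 74.2 CPM at P5. The ages overlapped, with P5 replicate 6 inside the E18 range, and the change did not pass (log2 fold change -0.19, 95% interval -0.42 to 0.04, edgeR adjusted p = 0.168).

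Armcx1 (ENSMUSG00000033460.14, chromosome X, 134717963 to 134721917, plus strand), the only X-linked gene of the 10, was lower at E18. Its values were 89.2, 94.3 and 110.2 CPM in E18 replicates 1, 3 and 4, and 156, 135 and 176 CPM in P5 replicates 6, 8 and 9. The ages did not overlap, and both varied, with means of 97.9 ± 10.9 CPM and 155 ± 20.9 (SD, n = 3 each). The log2 fold change was -0.67 (SE 0.125, edgeR adjusted p = 0.00359), 1.59-fold higher at P5. E18 replicate 4, with the fewest progenitor transcripts of the E18 samples, had the highest Armcx1 value of that age. The same sample was the highest at E18 for every other gene of the 10 except Rhot1. Some of these leads were small, as for Mfn1 (85.1 against 84.9 CPM in replicate 1). E18 replicate 1, with the most progenitor transcripts, stood above replicate 3 for Mfn1, Mfn2, Dnm1l, Trak1 and Snph. It stood below replicate 3 for Opa1, Rhot1, Rhot2, Trak2 and Armcx1. Any part of progenitors in these values was not tested. Without E18 replicate 1, the log2 fold change of Armcx1 was -0.60, and that of Trak2 was -0.74 (edgeR adjusted p = 0.0165 and 0.00632). Both genes passed in all 13 alternatives.

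Of 6 relatives of Armcx1, 1 passed the test, and it was higher at E18. Of all genes tested, 43.4% differed in either direction and 20.8% were higher at E18. Armcx4 fell between the ages where Armcx1 rose, from 190, 188 and 168 CPM in the E18 samples to 103, 140 and 95.2 CPM in the P5 samples (log2 fold change 0.69, SE 0.144, edgeR adjusted p = 0.00582). Armcx2 had 351 to 397 CPM at E18 and 373 to 386 at P5 (log2 fold change -0.05, edgeR adjusted p = 0.652). For Armcx3, a Miro-binding protein of the outer membrane, the values were 56.1 to 71.98 CPM and 60.5 to 81.2 CPM (log2 fold change -0.19, edgeR adjusted p = 0.288). It passed without P5 replicate 8 (-0.33, adjusted p = 0.0295). The autosomal relative Armc10 had a log2 fold change of 0.40 (edgeR adjusted p = 0.0620) and passed in 6 of 13 alternatives, DESeq2 among them. Armcx5 and Armcx6 were added with their values already known. Armcx5 had 55.6 to 57.9 CPM at E18 and 34.4 to 55.1 CPM at P5, with no overlap (log2 fold change 0.44, edgeR adjusted p = 0.0642), and passed in 5 of 13 alternatives, DESeq2 (adjusted p = 0.0336) among them. Armcx6 had 34.2 to 45.04 CPM and 38.4 to 40.9 CPM (log2 fold change 0.02, edgeR adjusted p = 0.886, and below 0 on library size alone). Armcx genes are similar in sequence, and how reads matching several of them were counted is not given in the sources used here.

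Syntaphilin, the anchor, did not pass the test. Snph (ENSMUSG00000027457.15, chromosome 2, 151590549 to 151632593, minus strand) had 26.7, 24.3 and 30.0 CPM at E18 and 27.7, 29.9 and 35.4 CPM at P5. The ages overlapped, since E18 replicate 4 lay above 2 of the 3 P5 samples. The log2 fold change was -0.20 with a 95% interval of -0.49 to 0.09 (edgeR adjusted p = 0.236), an interval that holds both no change and values as low as those of Dnm1l.

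**Figure D2:**
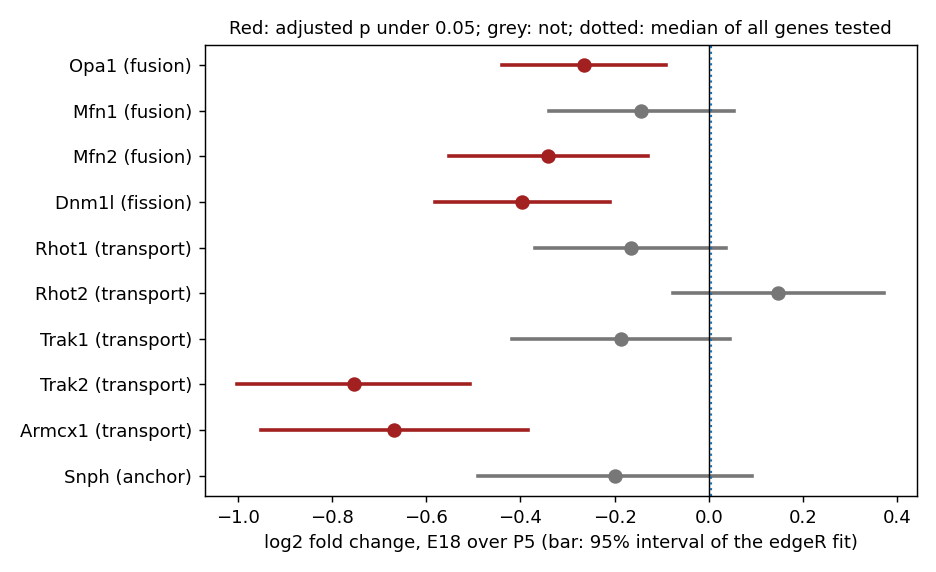
Log2 fold change of E18 over P5 (x axis) for the 10 genes (y axis), with the 95% interval of the edgeR fit. Red genes passed the adjusted threshold of 0.05, and the dotted line is the median of all genes tested. Trak2 (-0.75) and Armcx1 (-0.67) lie farthest from 0, and Rhot2 (0.15) is the only gene to the right.

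Ratios of 2 genes' counts within a sample do not depend on library scaling, and 5 were compared. With 3 samples against 3, the exact two-sided permutation test has 20 arrangements and cannot go below 0.1. Trak1 to Trak2 was 0.755, 0.686 and 0.740 in the E18 samples and 0.518, 0.443 and 0.517 in the P5 samples. The ages did not overlap, and the log2 ratio was higher at E18 by 0.56 (exact permutation p = 0.1, 0.25 adjusted over the 5 ratios). Rhot1 to Rhot2 was 3.82, 3.97 and 3.71 at E18 and 5.08, 4.67 and 4.55 at P5. This ratio also did not overlap, with a log2 difference of -0.31 (exact permutation p = 0.1, 0.25 adjusted).

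For both pairs the samples of the ages did not overlap, and neither difference passed a threshold of 0.05, which this design cannot reach. Mfn1 to Mfn2 was 0.638, 0.609 and 0.626 at E18 and 0.566, 0.617 and 0.465 at P5, where P5 replicate 8 fell within the E18 range (log2 difference 0.19, exact permutation p = 0.2, 0.25 adjusted). The ratio of the inner-membrane fusion gene to the fission gene, Opa1 to Dnm1l, was 0.695, 0.740 and 0.732 at E18 and 0.635, 0.705 and 0.641 at P5. These overlapped as well (log2 difference 0.13, exact permutation p = 0.2, 0.25 adjusted). For anchor against Miro, Snph to Rhot1, the ratio was 0.167 to 0.216 and 0.176 to 0.230, with a log2 difference of -0.03 (exact permutation p = 0.9, 0.9 adjusted) whose sign turned without E18 replicate 3 (0.09) or P5 replicate 9 (0.07).

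**Figure D3:**
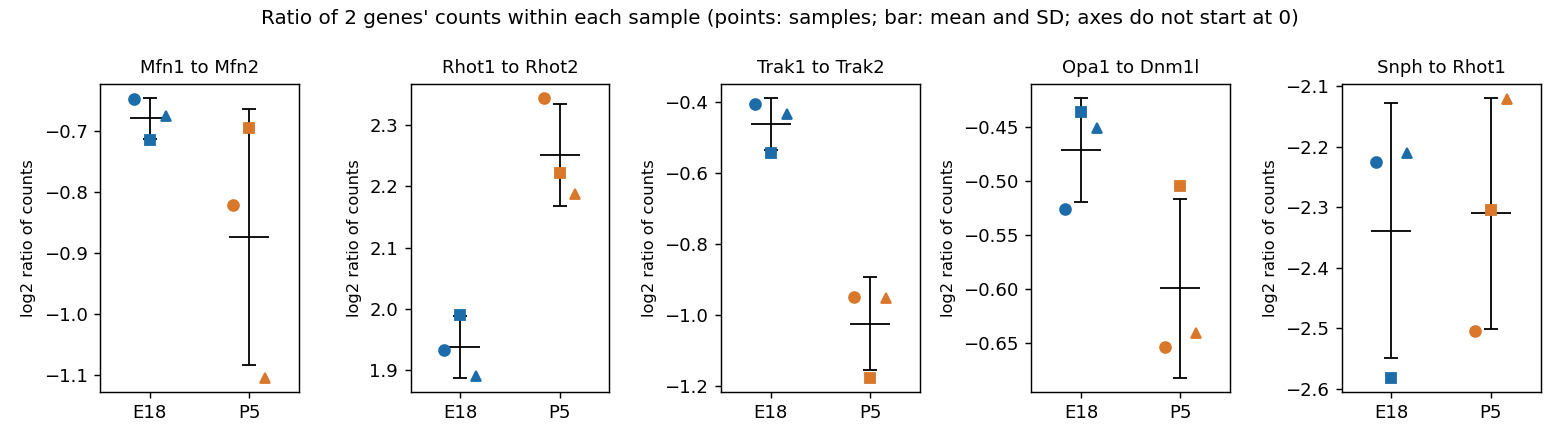
Log2 ratio of the counts of 2 genes within each sample (y axes, which do not start at 0) at E18 and P5. Points are samples, and bars give the mean and SD of 3. Rhot1 to Rhot2 and Trak1 to Trak2 separate the ages, and the other 3 ratios overlap.

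Levels were compared between genes after division by exon length (CPM per kilobase of the exons of RefSeq-matched GENCODE transcripts). The lengths take no account of overlapping genes, which bears most on Rhot2, whose exon bases all lie within the span of Gm26694. At E18, Dnm1l was highest at 84.6 ± 0.668 CPM per kilobase (SD, n = 3). Opa1 (40.5 ± 1.28) and Armcx1 (40.1 ± 4.49) followed and overlapped in their samples, then Rhot1 (31.3 ± 2.42) and Mfn2 (29.2 ± 0.698), which also overlapped. Mfn1 (18.2 ± 0.768), Trak2 (13.1 ± 0.210), Rhot2 (11.2 ± 0.796), Trak1 (7.25 ± 0.331) and Snph (5.69 ± 0.5999) came after, each with all 3 samples below the gene before it. The order thus ran from the fission gene at the top to the anchor at the bottom.

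At P5, Dnm1l was again highest at 111 ± 6.84 CPM per kilobase and Snph lowest at 6.53 ± 0.837 (SD, n = 3 each). Armcx1 (63.8 ± 8.56) stood above Opa1 (48.7 ± 0.263), with no overlap, where the pair had overlapped at E18. Trak2 (22.1 ± 2.91) and Mfn1 (20.1 ± 1.07) now overlapped, as did Mfn2 (36.99 ± 3.47) with Rhot1 (35.1 ± 1.13) and Trak1 (8.24 ± 0.849) with Snph. Rhot2 stood at 10.1 ± 0.476. With the longest transcript as the length, Trak1 stood above Rhot2 at both ages, since the exons of its 3 transcripts add up to 8135 bases and the longest has 4827. No other position changed.

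The wider machinery was covered by 50 further genes, all of them tested, of which 13 were lower at E18 and 5 higher. Thus 36.0% differed, against 43.4% of all genes, with a median log2 fold change of -0.08. Without E18 replicate 3, 10 of the 50 passed, while the number passing over all genes fell from 7135 to 4575.

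Among 17 motors, adaptors and Miro partners, 5 were lower and 2 higher (41.2% in either direction, against 43.4% of all genes). The heavy chains of kinesin-1, the motor that Trak proteins bind, differed in direction. Kif5b had 278, 296 and 283 CPM at E18 and 423, 411 and 400.1 CPM at P5 (log2 fold change -0.52, SE 0.0782, edgeR adjusted p = 0.00137). Kif5a also was lower at E18, with 1096, 1104 and 1315 CPM against 1472, 1732 and 1616 (log2 fold change -0.46, edgeR adjusted p = 0.00823). Kif5c was higher at E18, with 1817, 2178 and 1953 CPM against 1618, 1701 and 1536 (log2 fold change 0.29, edgeR adjusted p = 0.0309). It no longer passed without E18 replicate 3 (0.22), E18 replicate 4 (0.30), P5 replicate 6 (0.28) or P5 replicate 9 (0.25). The gene of this list with the lowest log2 fold change was Hap1, a partner of huntingtin and of motor proteins, at 13.2 to 16.7 CPM against 19.9 to 45.2 (log2 fold change -1.20, edgeR adjusted p = 0.00738). Disc1, a scaffold that binds the Miro and Trak complex, had 2.06 to 2.72 CPM against 3.73 to 3.77 (-0.68, adjusted p = 0.0189) and lost its call without E18 replicate 1 (-0.65) or 3 (-0.59).

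Of 13 fusion regulators and genes of Opa1 processing and cristae, 4 were lower at E18 and 9 did not pass. The 30.8% that differed compares with 43.4% of all genes. Slc25a46, an outer-membrane protein linked to optic atrophy, had 107 to 117 CPM at E18 and 157 to 161 CPM at P5 (log2 fold change -0.49, SE 0.0813, edgeR adjusted p = 0.00207). Pld6, a mitochondrial phospholipase that favours fusion, was low throughout, at 0.972 to 1.30 CPM and 2.98 to 3.62 CPM (-1.47, adjusted p = 0.00128). Of 11 fission partners, 3 were lower and 1 higher (36.4% in either direction). Gdap1, mutated in an inherited neuropathy, had 207 to 232 CPM at E18 and 263 to 322 CPM at P5 (-0.41, edgeR adjusted p = 0.0117), and lost its call without E18 replicate 1 (-0.36). Mtfp1 had 2.92 to 3.41 CPM against 4.49 to 12.2 (-1.33, adjusted p = 0.0118, and -0.86 without P5 replicate 9). Mtfr1 was higher at E18, at 28.4 to 35.4 CPM against 16.5 to 24.9 (0.60, adjusted p = 0.0165), and lost its call without E18 replicate 3 (0.51) or P5 replicate 6 (0.59).

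Of 9 genes of mitophagy and Miro turnover, 2 were higher at E18 and 1 lower (33.3% in either direction, against 43.4% of all genes). Park2 (Parkin), a ubiquitin ligase that marks damaged mitochondria and Miro, had 5.86, 6.31 and 7.15 CPM at E18 and 11.5, 11.3 and 14.1 CPM at P5 (log2 fold change -0.93, SE 0.150, edgeR adjusted p = 0.00190). Bnip3l (Nix), a mitophagy receptor, went the other way, with 203 to 219.6 CPM against 165 to 173 (0.31, edgeR adjusted p = 0.0136), and lost its call without E18 replicate 3 (0.29). March5, a ubiquitin ligase of the outer membrane, had 124 to 133 CPM against 89.9 to 111 (0.34, adjusted p = 0.0230), and lost it in 5 of the 6 fits that left out 1 sample, all but that without P5 replicate 8 (0.26 to 0.37 in the 5).

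**Figure D4:**
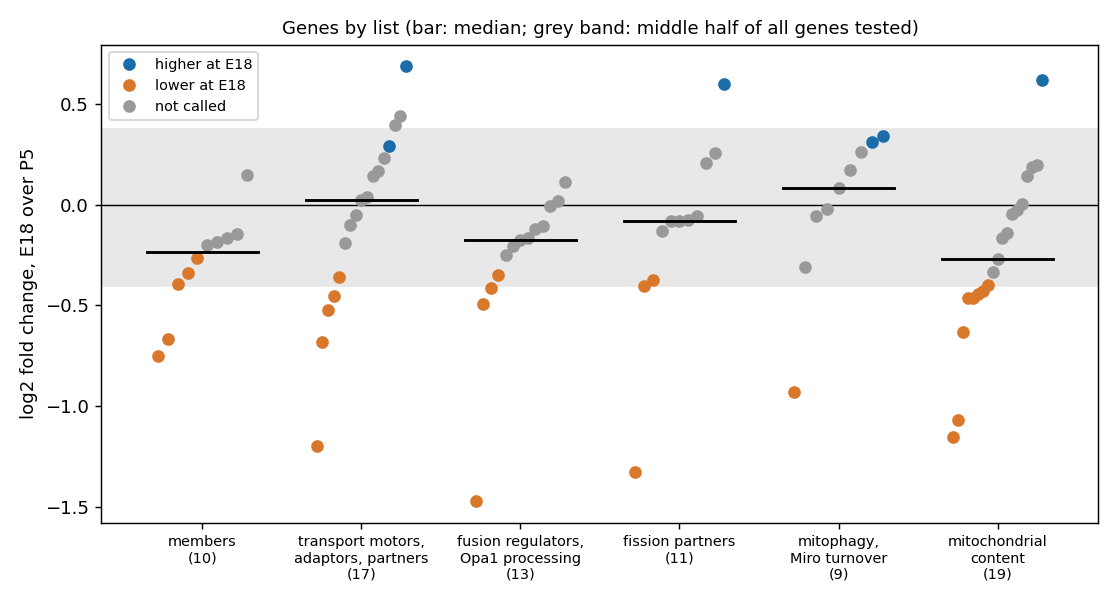
Log2 fold change of E18 over P5 (y axis) for each gene of the 10 and of the other lists (x axis, with the number of genes). Blue genes were higher and orange genes lower at E18 by edgeR, bars are medians, and the grey band runs from the lower to the upper quartile of all genes tested (-0.40 to 0.38). The medians of the 10 genes (-0.23) and of the mitochondrial content list (-0.27) lie below those of the other 4 lists.

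Genes of mitochondrial mass and its control were measured beside the 10 genes. Of 19 such genes, 8 were lower at E18 and 1 was higher, and the 47.4% that differed in either direction is close to the 43.4% of all genes. By direction, 22.5% of all genes were lower at E18 and 20.8% higher. Their median log2 fold change was -0.27. Ppargc1a, a coactivator that drives the making of mitochondria, had 6.40, 5.42 and 5.99 CPM at E18 and 10.7, 11.96 and 14.7 CPM at P5 (log2 fold change -1.07, SE 0.160, edgeR adjusted p = 0.00137). Its relative Ppargc1b had 1.11 to 1.59 CPM against 1.93 to 4.43 (-1.16, adjusted p = 0.0188), and lost its call without E18 replicate 3 (-1.005) or P5 replicate 9 (-0.82). Nrf1, the factor that binds the NRF-1 motif, was the gene that was higher at E18, with 45.4 to 49.3 CPM against 23.1 to 37.7 (0.62, edgeR adjusted p = 0.0158), a call lost without E18 replicate 3 (0.58) or P5 replicate 6 (0.61).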

How the data were processed

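RGC RNA was sequenced by the authors as paired-end reads (TruSeq with RiboZero Gold, though the labels name polyA RNA), aligned to mm10 by STAR and counted on RefSeq genes by HT-seq. The table deposited by the authors holds raw counts, which were used here. Its normalized counts and the columns of the EdgeR comparison (fold changes, p-values, ranks) were not used. Samples were grouped by title.

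TMM normalization, edgeR's expression filter and the quasi-likelihood test (edgeR 4.0.16, R 4.3.3) were applied to all 24060 genes, and p-values were adjusted by Benjamini-Hochberg over the 16449 genes kept, at a threshold of 0.05. Standard errors and intervals are those of the fit. No samples of one age agreed within sampling noise (chi-square per degree of freedom 30.5 to 141). Ratios were tested by exact permutation (scipy 1.17.1). Gene positions come from GENCODE M21. The 10 genes were matched by symbol, and their list, like the other lists, the ratios and the rule for named genes, was drawn up with earlier results of these data known. Named were the 10 genes, up to 2 called rises and 2 falls without overlap per list, and Kif5a, Kif5b, Kif5c, Armcx2, Armcx3 and Armc10, with Armcx5 and Armcx6 added later. As alternatives, DESeq2 1.42.0, the likelihood ratio and exact tests of edgeR, other scalings, filters and pseudocounts, and the omission of each sample were tried.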

Additional observations from a re-analysis of the deposited data

How the results depend on the processing

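For the 10 genes, 13 alternatives each gave 130 fold changes, of which 125 kept their direction and their side of the threshold and 5 lost the call, those of Opa1 and Mfn2 without single E18 samples. The other tests, scalings and filters left 5 genes lower at E18 and 0 higher. With each sample left out in turn, the genes called, all of them lower at E18, numbered 3 to 5, against 10 to 25 in the wider list and 4575 to 8796 over all genes. Snph to Rhot1 ranged from -0.13 to 0.09 and turned sign without E18 replicate 3 (0.0930) or P5 replicate 9 (0.0656). The causes were not tested. For the other named genes, whose alternatives were added after the data were seen, 252 fold changes kept direction and side, 12 gained the call, 19 lost it and 3 reversed, all of Armcx6 (-0.00619 on library size alone, and -0.0634 to 0.132 with single samples left out, negative without E18 replicate 4 or P5 replicate 6, where it was -0.0170). Precision is limited by the 3 samples an age, and counting error was not separated from other spread for single genes.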
